A study of Arabidopsis thaliana with 6 samples.

Results

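Transcripts of 10 genes that carry seed oil to sugar were followed in Arabidopsis thaliana seedlings. The genes were taken by locus: SDP1, PXA1, LACS6, LACS7, ACX2, MFP2, KAT2, ICL, MLS and PCK1. They are 10 of the 32548 genes listed in each of the 2 deposited tables, and all 10 were found in both. The first table set the mRNA of seedlings labelled epl1a/b (-/-) against that of wild-type Col-0 seedlings (WT), with 2 libraries each. EPL1A and EPL1B resemble Enhancer of polycomb proteins, which belong to NuA4, a complex that acetylates histones. The titles of the epl1a/b libraries begin with H4K5Ac, a histone mark, but all labels give them as transcript libraries. The second table held wild-type Col-0 seedlings on plates wrapped in foil (dark) and wild-type Col-0 seedlings in the light, with 1 library each. All samples were whole seedlings grown on MS plates at 23 °C in days of 16 h light and 8 h dark, and RNA was taken at an age of 2 weeks. The sources used here do not give how long the foil stayed on.

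Oil-storing seeds such as those of Arabidopsis keep their carbon as triacylglycerol in oil bodies. After germination a lipase frees the fatty acids, a transporter carries them into the peroxisome, acyl-CoA synthetases activate them, and β-oxidation shortens them to acetyl-CoA. The glyoxylate cycle then joins acetyl units into carbon skeletons, bypassing the steps of the citric acid cycle that release carbon dioxide, and phosphoenolpyruvate carboxykinase opens the route from those skeletons to sugar. Peroxisomes that do this work are called glyoxysomes. In greening cotyledons the glyoxylate cycle enzymes are lost and photorespiratory enzymes of leaf peroxisomes take their place.

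The sequences just upstream of ICL and MLS are shown because both genes encode enzymes particular to the glyoxylate cycle and had the highest dark over light ratios of the 10. Each is the 250 bases before the annotated gene start in the RefSeq annotation of TAIR10.1, read on the minus strand, where both genes lie. Capitals mark matches to ACGTGNC, the core of abscisic acid response elements, searched on both strands together with the G-box word CACGTG. These words can share the letters ACGTG.
ICL, chr3:7656054-7656303: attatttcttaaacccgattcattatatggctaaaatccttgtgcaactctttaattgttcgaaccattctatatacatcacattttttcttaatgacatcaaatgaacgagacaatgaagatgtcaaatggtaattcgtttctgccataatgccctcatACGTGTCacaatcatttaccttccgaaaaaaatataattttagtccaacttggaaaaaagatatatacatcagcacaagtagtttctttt
MLS, chr5:1034974-1035223: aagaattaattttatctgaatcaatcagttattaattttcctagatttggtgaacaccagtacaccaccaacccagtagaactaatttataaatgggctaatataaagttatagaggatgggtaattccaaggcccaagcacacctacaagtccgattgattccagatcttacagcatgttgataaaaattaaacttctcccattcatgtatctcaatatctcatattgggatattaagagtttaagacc
The ICL window held 1 match to ACGTGNC, starting 90 bases before the gene start. The MLS window held neither word. Among the 10 genes, 1 window held ACGTGNC and 0 held CACGTG. Of 27444 promoters of protein-coding genes read in the same way, 8.57% held ACGTGNC and 6.49% held CACGTG.

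The genotype labels were checked on the targeted genes. EPL1A had 93.8 and 79.2 normalised counts in epl1a/b, against 282 and 225 in WT (limma log2 change -1.54 ± 0.16, SE; adjusted p = 0.000233). EPL1B had 4656 and 4399 in epl1a/b, against 335 and 351 in WT, which goes against a loss of transcript. Directions below are therefore those of the libraries labelled epl1a/b. The labels do not name separate cultures for the 2 libraries of a group, and the p-values rest on a spread that may be technical. Depth was close to equal, at 19088784 and 19067459 reads recovered from the normalised counts for epl1a/b and 18796289 and 18821439 for WT. In bulk seedlings, fewer cells of a type and less RNA per cell cannot be told apart. Of the 5 green tissue markers with reads, 5 fell in epl1a/b, with sums of 329622 and 337580 in epl1a/b, against 682096 and 623025 in WT. The 6 root markers summed to 1839 and 2660 in epl1a/b, against 3176 and 3057 in WT, with 1 called higher and 3 called lower (0 higher and 5 lower without epl1a/b replicate 2, 0 higher and 1 lower without WT replicate 1, 0 higher and 2 lower without WT replicate 2). The 14 seed reserve markers summed to 148 and 127 in epl1a/b, against 65.6 and 80.8 in WT. Of the 14, 6 were at 0 reads in epl1a/b and 8 in WT. Only 6 of them could be tested, with 2 called higher, 4 not called and a median log2 change of 0.18. What part these tissues have in the changes below was not tested.

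Malate synthase transcript was 10.9-fold higher in epl1a/b seedlings, the largest change of the 10 genes. The transcripts for the last β-oxidation steps (MFP2, KAT2) and for phosphoenolpyruvate carboxykinase (PCK1) rose 1.41-fold to 1.56-fold. The peroxisomal fatty acid transporter PXA1 and the acyl-CoA synthetase LACS7 fell 1.22-fold and 1.58-fold. In all, 4 of the 10 rose, 2 fell and 4 did not pass an adjusted p of 0.05, with a median log2 change of 0.28. Over all 23658 genes tested, 22.5% were called higher and 24.1% lower, with a median of 0.02. So 6 of 10 were called in either direction, where 46.7% of all genes tested were. Both epl1a/b libraries lay above both WT libraries for 5 of the 10 and below them for 3, against 38.1% and 37.6% of all genes.

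MLS (AT5G03860, chromosome 5, 1032099 to 1034973, minus strand, 5 exons in its longest transcript) encodes malate synthase, which joins glyoxylate and acetyl-CoA. It had 658 and 458 normalised counts in epl1a/b, against 41.4 and 59.0 in WT. Even the lower epl1a/b library was far above the higher WT library. The means were 558 ± 141 in epl1a/b and 50.2 ± 12.5 in WT (SD, n = 2 each), and limma gave a log2 change of 3.45 ± 0.23 (SE) at an adjusted p of 5.18e-05. Of the genes tested, 130 had a larger rise. MLS passed under all 13 alternative settings, with log2 changes of 3.19 to 3.71.

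ICL (AT3G21720, chromosome 3, 7652487 to 7656053, minus strand, 5 exons) encodes isocitrate lyase, which splits isocitrate into succinate and glyoxylate. It had 1324 and 606 normalised counts in epl1a/b, against 272 and 351 in WT. Both epl1a/b libraries lay above both WT libraries, but they differed widely from each other. The means were 965 ± 508 in epl1a/b and 312 ± 56.4 in WT (SD, n = 2 each), and the log2 change of 1.53 ± 0.49 (SE) did not pass (limma adjusted p = 0.0938). Over 13 alternatives its adjusted p ran from 0.000931 to 0.131, and it passed under 5 of them. These were a pseudocount of 0.1, a crossed replicate block (chosen after seeing the data) and DESeq2 on recovered reads (log2 change 1.64, adjusted p = 0.0121). The others left out epl1a/b replicate 1 (log2 change 0.97) or epl1a/b replicate 2 (2.1). With either left out, the wide gap between the epl1a/b libraries no longer enters the fit, so those passes add no support.

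PCK1 (AT4G37870, chromosome 4, 17802690 to 17806705, minus strand, 13 exons) turns oxaloacetate into phosphoenolpyruvate. It had 10158 and 7156 normalised counts in epl1a/b, against 5152 and 5771 in WT. The groups did not overlap, and epl1a/b replicate 1 was the higher of its pair, as for ICL and MLS. The log2 change was 0.64 ± 0.18 (SE; limma adjusted p = 0.0335). The call was lost without epl1a/b replicate 1 (log2 change 0.39, adjusted p = 0.0663), WT replicate 1 (0.56, adjusted p = 0.149) or WT replicate 2 (0.73, adjusted p = 0.0860). The root marker sum was lower in epl1a/b replicate 1 than in replicate 2, as given above, and its part in these values was not tested.

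**Figure D1:**
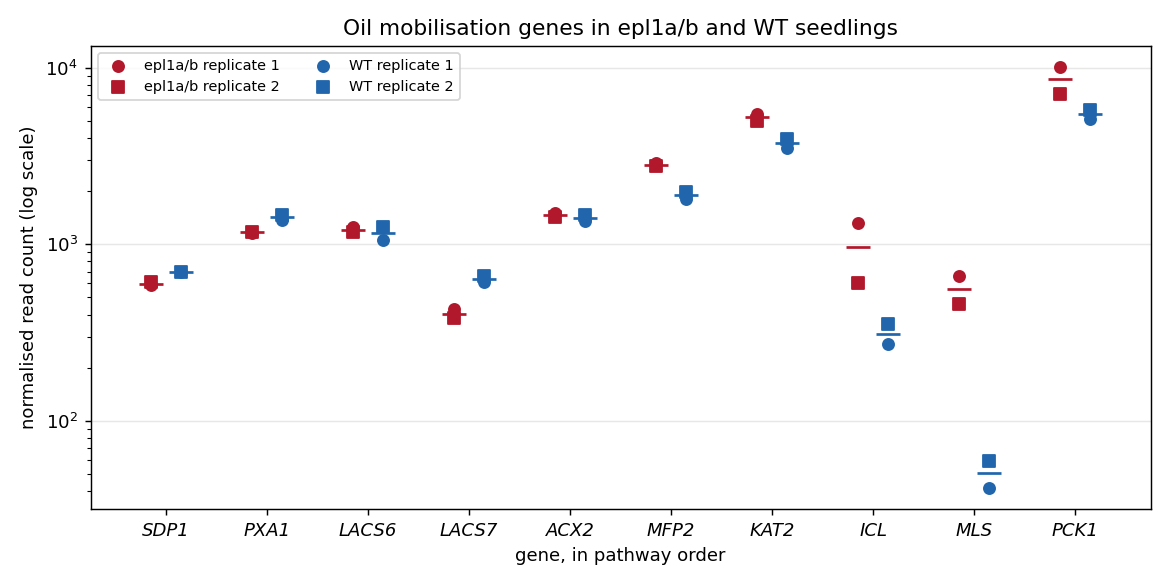
Normalised read counts (log axis) of the 10 genes, in pathway order, in each library of epl1a/b (red) and WT (blue) seedlings, with circles for replicate 1, squares for replicate 2 and short lines for group means. MLS lies at 658 and 458 in epl1a/b against 41.4 and 59.0 in WT, and ICL shows the widest gap between epl1a/b replicates on this axis.

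Of the 3 β-oxidation genes, MFP2 and KAT2 rose. ACX2 (AT5G65110, chromosome 5, 26009521 to 26012684), a long-chain acyl-CoA oxidase that takes the first step, had 1502 and 1426 normalised counts in epl1a/b, against 1349 and 1460 in WT. The groups overlapped, and the log2 change of 0.06 ± 0.08 (SE) did not pass (limma adjusted p = 0.539), although it did on equal library totals (0.30, adjusted p = 0.0138). MFP2 (AT3G06860, chromosome 3, 2161735 to 2166357), the multifunctional protein that hydrates and then oxidises the chain, had 2906 and 2775 in epl1a/b, against 1806 and 1985 in WT. It was 1.5-fold higher, by 0.58 ± 0.08 on the log2 scale (SE; limma adjusted p = 0.000680), and passed under all 13 alternatives. KAT2 (AT2G33150, chromosome 2, 14047478 to 14051400), the main thiolase, which releases acetyl-CoA, had 5478 and 5047 in epl1a/b, against 3528 and 3956 in WT. It was 1.41-fold higher, by 0.49 ± 0.09 on the log2 scale (SE; limma adjusted p = 0.00251). Leaving out epl1a/b replicate 1 ended the KAT2 call (log2 change 0.43, adjusted p = 0.0529).

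No gene upstream of β-oxidation was called higher, where 22.5% of all genes tested were. These genes are too few to set apart from that share, and LACS6 was called higher on equal totals. SDP1 (AT5G04040, chromosome 5, 1089342 to 1093204), the main lipase of seed oil, had 585 and 614 normalised counts in epl1a/b, against 695 and 694 in WT. Both epl1a/b libraries lay below WT, but the log2 change of -0.21 ± 0.08 (SE) did not pass (limma adjusted p = 0.0557) and was 0.03 on equal totals (adjusted p = 0.786). PXA1 (AT4G39850, chromosome 4, 18488434 to 18497266), the ABC transporter that brings fatty acids into the peroxisome, had 1164 and 1175 in epl1a/b, against 1370 and 1476 in WT. It fell by 0.28 on the log2 scale (SE 0.07; limma adjusted p = 0.0153). That call was lost without epl1a/b replicate 1 (log2 change -0.28, adjusted p = 0.0949), without epl1a/b replicate 2 (-0.29, adjusted p = 0.0883), without WT replicate 2 (-0.23, adjusted p = 0.0742) and with columns rescaled to equal totals (-0.04, adjusted p = 0.655).

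The peroxisomal acyl-CoA synthetases LACS6 and LACS7 are enzymes that can stand in for each other in part. LACS7 (AT5G27600, chromosome 5, 9742492 to 9747024) had 428 and 380 normalised counts in epl1a/b, against 612 and 664 in WT. It fell 1.58-fold (log2 change -0.66 ± 0.10, SE; limma adjusted p = 0.00110) and passed under all 13 alternatives. LACS6 (AT3G05970, chromosome 3, 1786279 to 1791887) had 1252 and 1175 in epl1a/b, against 1056 and 1252 in WT. Those libraries overlapped (log2 change 0.08 ± 0.10, SE; limma adjusted p = 0.540), and the gene passed on equal totals (0.32, adjusted p = 0.0301) and stood at -0.05 without WT replicate 1 (adjusted p = 0.691). Whether the changes of LACS6 and LACS7 differ was not tested. None of the 10 genes shared exon bases with another annotated gene, and at most 1.2% of a gene's 50-base words occurred elsewhere in the genome.

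**Figure D2:**
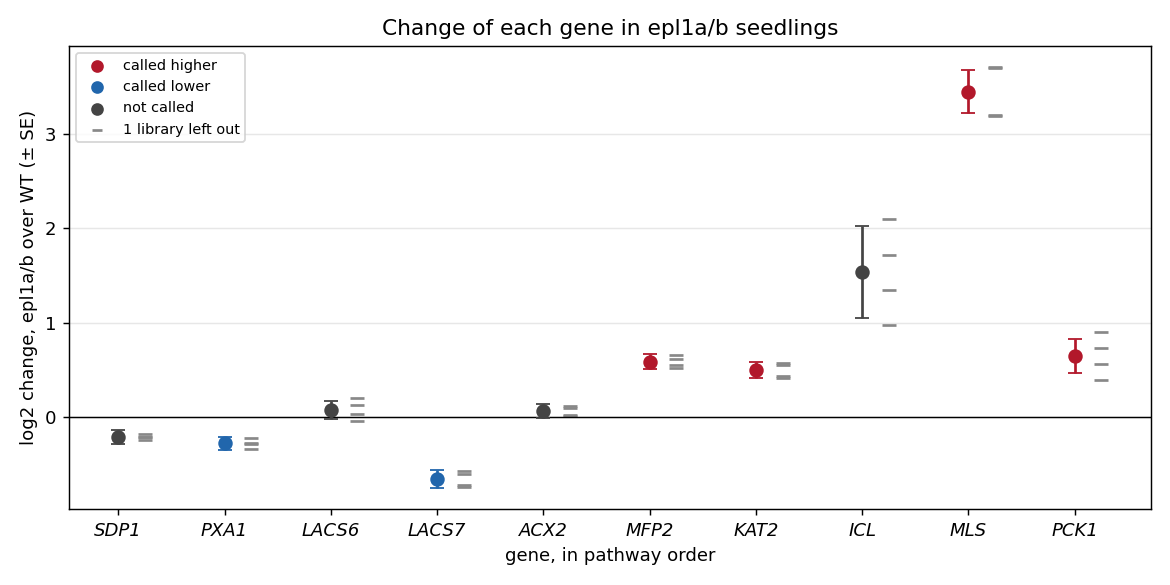
Log2 change of each gene in epl1a/b over WT from limma (circles, bars ± SE, n = 2 libraries each), coloured red where called higher, blue where called lower and grey where not called; grey dashes are the changes with 1 library left out. MLS stands at 3.45, and the dashes of ICL spread from 0.97 to 2.1.

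Scaled by exon length, the 10 genes summed to 10095 and 8193 normalised counts per kb in epl1a/b, against 6073 and 6784 in WT. PCK1 and KAT2 led in every library. PCK1 had 3352 ± 822 normalised counts per kb in epl1a/b and 2114 ± 170 in WT, and KAT2 had 2457 ± 142 in epl1a/b and 1747 ± 141 in WT (SD, n = 2 each). MFP2 followed with 1045 ± 34.2 per kb in epl1a/b and 698 ± 46.4 in WT. ACX2 had 546 ± 19.9 per kb in epl1a/b and 524 ± 29.1 in WT, and LACS6 had 490 ± 22.1 in epl1a/b and 466 ± 56.0 in WT. The libraries of ACX2 and LACS6 overlapped in WT but not in epl1a/b. ICL had 436 ± 229 per kb in epl1a/b, where its libraries, at 598 and 274, lay above and below those of ACX2 and LACS6, and 141 ± 25.5 in WT. PXA1 had 218 ± 1.5 per kb in epl1a/b and 266 ± 14.0 in WT, where it overlapped LACS7 at 260 ± 14.8. MLS was the lowest of the 10 in WT, at 24.4 ± 6.1 per kb, and stood at 272 ± 68.8 in epl1a/b. SDP1 and LACS7, at 163 ± 5.5 and 164 ± 13.8 per kb, were lowest in epl1a/b and overlapped each other. MLS made up 3.18% and 2.72% of the summed per-kb level in epl1a/b, against 0.331% and 0.424% in WT. ICL made up 5.93% and 3.34% in epl1a/b, against 2.02% and 2.34% in WT.

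The wider pathway held changes in both directions. Of 54 further genes for β-oxidation, lipolysis, transport, the glyoxylate cycle, gluconeogenesis and peroxisome assembly, 53 could be tested. Of these, 7 rose and 20 fell in epl1a/b, with a median log2 change of -0.12. Beside these counts and those of the lists below, 22.5% of all genes tested were called higher and 24.1% lower. With columns rescaled to equal totals, where the median of all genes is 0.25, 8749 of all genes were called higher and 3655 lower. Of the 53 pathway genes, 18 were then called higher and 14 lower. Without epl1a/b replicate 2, 2 were called higher, and without WT replicate 1, 4 were. Of 13 other β-oxidation genes, 5 rose and 2 fell, with a median of 0.07, and 7 were called higher and 1 lower on equal totals, with a median of 0.31. The acyl-CoA oxidase ACX1 rose 1.45-fold (limma adjusted p = 0.00112), and ACX6, of the same family, had 37.5 and 39.4 normalised counts in epl1a/b against 21.1 and 21.8 in WT (limma adjusted p = 0.0368). The ACX6 call was lost with each library left out in turn, with either replicate block and with DESeq2 (log2 changes 0.78 to 0.85). AIM1, the second multifunctional protein, fell by 0.35 on the log2 scale (limma adjusted p = 0.0201), and the enoyl-CoA hydratase ECH2 fell 1.53-fold. The ECH2 value is uncertain, since another gene covers 16.8% of its exon bases. The AIM1 call was lost on equal totals (log2 change -0.11) and in 4 other alternatives (log2 changes -0.44 to -0.25). Of this list, 2 genes were called higher without WT replicate 1 or epl1a/b replicate 2, and 3 without either other library or with DESeq2.

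Among 7 other lipolysis and transport genes, 2 rose and 2 fell, with a median log2 change of -0.12 that was 0.12 on equal totals. The mitochondrial succinate-fumarate carrier SFC1, which passes on the succinate made by isocitrate lyase, rose 1.63-fold (limma adjusted p = 0.00411). CGI58, a lipid-body regulator that binds PXA1, rose 1.48-fold (limma adjusted p = 0.00260). Both calls were lost without epl1a/b replicate 2 (log2 change 0.62, adjusted p = 0.0815 for SFC1; 0.52, adjusted p = 0.0518 for CGI58). The mitochondrial carrier BOU, known for photorespiration, fell 2.71-fold (limma adjusted p = 7.36e-06), and the peroxisomal ATP carrier PNC1 fell 1.67-fold (limma adjusted p = 0.00229).

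Of 11 other glyoxylate cycle and gluconeogenesis genes that could be tested, 0 rose and 4 fell, with a median of -0.09, and 4 were called higher and 3 lower on equal totals. Without WT replicate 2, 2 were called higher and 3 lower, and the median was 0.05. The cytosolic fructose bisphosphatase CYFBP, which serves sucrose synthesis, had 894 and 770 normalised counts in epl1a/b, against 2896 and 2879 in WT, 3.48-fold lower (limma adjusted p = 5.13e-06). The peroxisomal malate dehydrogenase PMDH2 had 8741 and 7902 in epl1a/b, against 17864 and 16204 in WT, 2.05-fold lower (limma adjusted p = 7.16e-05). CSY1, a peroxisomal citrate synthase, had 0 reads in all 6 libraries of the series.

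Of 22 peroxins, the proteins that build peroxisomes and import their enzymes, 0 rose and 12 fell as deposited, while 5 were called higher and 8 lower on equal totals. The median log2 change was -0.38 as deposited and -0.14 on equal totals. Without WT replicate 2, 1 was called higher and 10 lower, and without epl1a/b replicate 2, 8 were called lower. PEX11D, a peroxisome division factor, fell 2.1-fold (limma adjusted p = 1.70e-05), and PEX3A, which serves membrane assembly, fell 1.94-fold (limma adjusted p = 0.000560). The import receptors PEX5 and PEX7, chosen after their values were seen, fell by 0.61 and 0.42 on the log2 scale. Of 6 leaf peroxisome genes, 0 rose and 4 fell, with a median of -0.59, and the count of 4 lower was the same under all 13 alternatives. Hydroxypyruvate reductase HPR1 fell 1.99-fold and glycolate oxidase GOX1 1.59-fold.

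In dark-kept Col-0 seedlings ICL transcript was 21.3-fold higher than in light-kept seedlings, MLS 11.6-fold, PCK1 4.92-fold and ACX2 2.64-fold. Of the 11 other glyoxylate cycle and gluconeogenesis genes with enough counts, 1 was at least 2-fold higher in the dark and 2 at least 2-fold lower, with a median log2 ratio of -0.07. These values are CPM, read counts scaled to a common depth by TMM; depth was 18798088 counts for dark and 27831231 for light. With 1 library per condition no test was possible and no difference has a replicate check, so each ratio is given with an exact Clopper-Pearson interval of 95% that covers counting error only. Of the 10 genes, 4 were at least 2-fold higher in the dark and 0 at least 2-fold lower, with a median log2 ratio of 0.75. Among the 21128 genes that had 10 counts or more, 15.7% were at least 2-fold higher and 19.4% at least 2-fold lower, with a median of -0.02. Scaling by library totals moved that median to 0.21 and left 4 of the 10 genes at least 2-fold higher.

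ICL had 2467 CPM in the dark library, against 116 CPM in the light library, from 50175 and 2974 counts (interval of the ratio 20.6 to 22.2). Of the genes, 173 had a higher ratio. MLS had 350 CPM in the dark, against 30.1 CPM in the light (interval 10.8 to 12.5), with 325 genes above it. PCK1 had 1259 CPM in the dark, against 256 CPM in the light (interval 4.79 to 5.06), with 825 genes above it. In epl1a/b these 3 genes also had the highest log2 changes of the 10, although ICL did not pass, MLS and ICL changed places, and the third place of PCK1 rests on 1 library. Without epl1a/b replicate 1, the log2 change of PCK1 (0.39) was below those of MFP2 (0.55) and KAT2 (0.43).

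Among β-oxidation genes ACX2 had 175 CPM in the dark, against 66.0 CPM in the light (interval of the ratio 2.50 to 2.80). MFP2 had 201 CPM in the dark, against 128 CPM in the light, a ratio of 1.57 (interval 1.5 to 1.64). KAT2 had 493 CPM in the dark, against 292 CPM in the light, a ratio of 1.69 (interval 1.64 to 1.74). All 3 intervals lie above 1, so these libraries differ beyond counting error.

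Of the genes upstream of β-oxidation, SDP1 had 56.5 CPM in the dark, against 36.6 CPM in the light, a ratio of 1.54 (interval 1.41 to 1.68). LACS7 had 45.7 CPM in the dark, against 27.2 CPM in the light, a ratio of 1.68 (interval 1.52 to 1.85) that is close to those of MFP2 and KAT2, and LACS6 had 92.3 CPM in the dark, against 69.3 CPM in the light (interval 1.25 to 1.42). PXA1 had 83.6 CPM in the dark, against 79.9 CPM in the light, and its interval of 0.981 to 1.12 includes 1. That interval holds only for the TMM scaling, whose factors were 1.08 for dark and 0.924 for light.

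**Figure D3:**
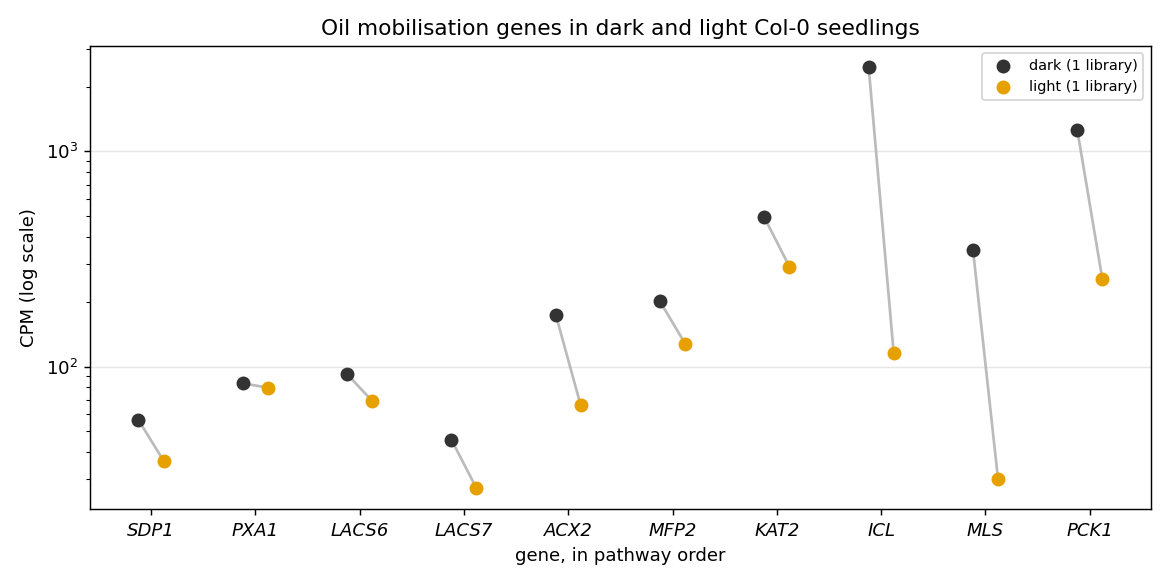
CPM (log axis) of the 10 genes in the dark library (black) and the light library (orange) of Col-0 seedlings, 1 library each, with a grey line joining the values of a gene. ICL falls at 2467 CPM in the dark against 116 CPM in the light, and PXA1 at 83.6 against 79.9 CPM.

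Seed reserve transcripts moved with these values. All 14 markers of storage proteins and oil bodies were at least 2-fold higher in the dark, and they summed to 7427 CPM in the dark library, against 30.4 CPM in the light library, with 0 of 14 at 0 counts in either. The cruciferin gene CRU3 alone had 2753 CPM in the dark, against 4.08 CPM in the light. Of the 6 root markers, 3 were at least 2-fold higher and 1 at least 2-fold lower in the dark, with sums of 587 CPM in the dark and 215 CPM in the light. Of the 5 green tissue markers with counts, 5 were at least 2-fold lower. Their sums were 8105 CPM in the dark and 41735 CPM in the light. Over all genes with enough counts, 15.7% were at least 2-fold higher and 19.4% at least 2-fold lower. With 1 library each, the treatment cannot be told apart from any other difference between the libraries, and what part left-over seed material has in these values was not tested. In the epl1a/b table the seed reserve sums were 148 and 127 normalised counts, against 65.6 and 80.8 in WT, and 2 markers passed there, or 1 without either epl1a/b library, without WT replicate 2 or with DESeq2 on recovered reads. SESA4, an albumin, had 36 and 39 reads in epl1a/b, against 1 and 1 in WT. The cruciferin gene CRA1 had 16 and 16 reads in epl1a/b, against 5 and 2 in WT. The other tested markers were not called and went both ways. Their log2 changes were -0.03 for OLEO1, -0.18 for OLEO3, -0.36 for OLEO5 and 0.39 for OLEO4. SESA1, also in the sums, had 27 reads in epl1a/b replicate 1 and 0 in the other epl1a/b and WT libraries.

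By exon length ICL was the highest of the 10 in the dark library, at 1115 CPM per kb and 50.0% of the summed per-kb level of the 10 genes. In the light library KAT2 was highest, at 136 CPM per kb and 31.1% of the sum, with PCK1 next at 99 CPM per kb. PCK1 kept a like share, with 21.9% in the dark and 22.6% in the light. The light library had its own order of the lowest genes, with SDP1 at 9.97 and LACS7 at 11.1 CPM per kb below MLS at 14.7.

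The 53 further pathway genes with enough counts held 6 at least 2-fold higher in the dark and 7 at least 2-fold lower. Their median log2 ratio was -0.07. Beside these counts and that of the leaf peroxisome list, 15.7% of all genes were at least 2-fold higher and 19.4% at least 2-fold lower. ACX1 was 3.07-fold higher (interval 2.95 to 3.20), and the thiolases KAT5 and KAT1 were 7.02-fold and 2.37-fold lower. PNC1 was 2.21-fold higher, with PNC2, the other ATP carrier, at 1.97-fold, while BOU was 2.17-fold lower and SFC1 had 10.8 CPM in the dark against 18.9 CPM in the light. The peroxisomal citrate synthase CSY3 was 2.45-fold higher, and PPDK, a dikinase that makes phosphoenolpyruvate from pyruvate, had 85.7 CPM in the dark against 48.7 CPM in the light. CYFBP was 5.88-fold lower and PMDH2 4.26-fold lower. Among peroxins PEX13 was 2.96-fold and PEX19B 2.80-fold higher, and PEX11D was 2.39-fold lower. Of the 6 leaf peroxisome genes, 5 were at least 2-fold lower, with GGT1, a glutamate-glyoxylate aminotransferase, 8.15-fold lower and the catalase CAT2 at 511 CPM in the dark against 574 CPM in the light.

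**Figure D4:**
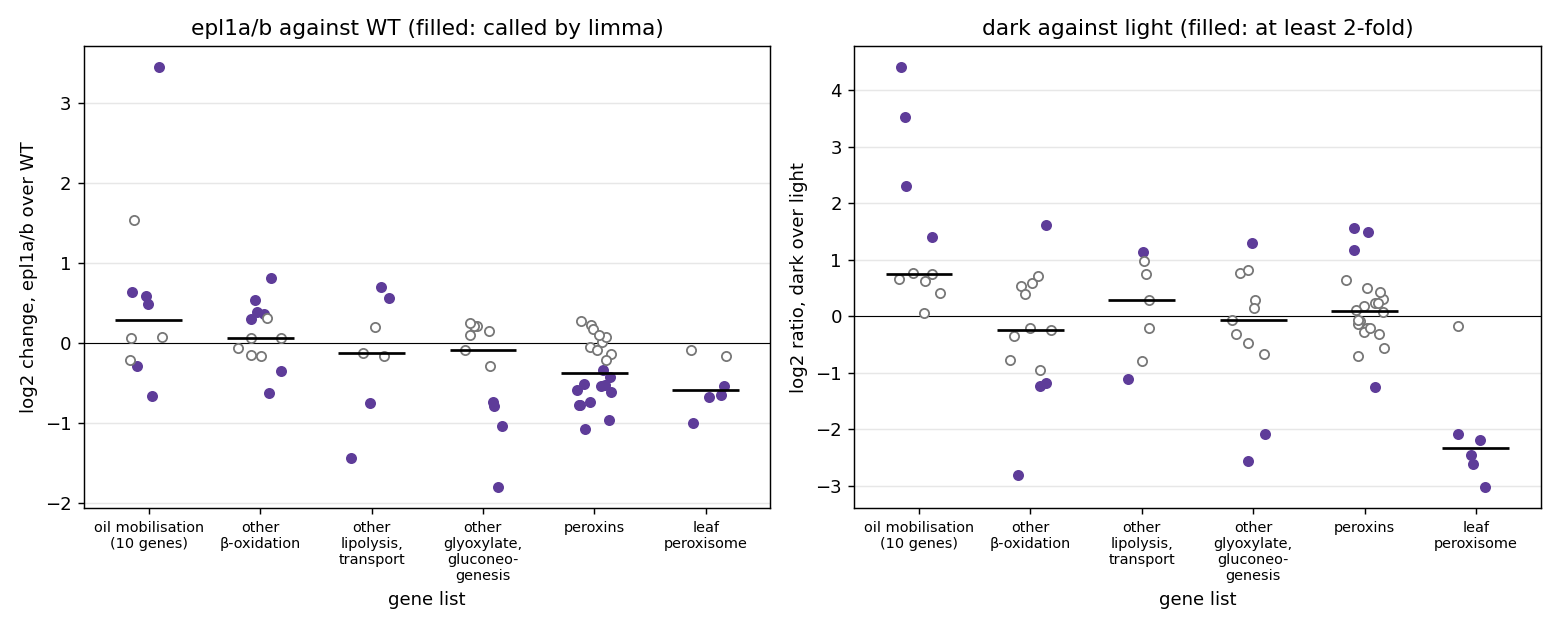
Log2 change in epl1a/b over WT (left) and log2 ratio of dark over light (right) for the genes of 6 lists, 1 point per gene and a black line at each list's median; filled points were called by limma (left) or at least 2-fold apart (right), and open points were not. MLS, at 3.45, is the highest point on the left, and ICL, at 4.41, on the right.

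Isoenzyme genes for the same step were compared as shares of their summed per-kb level within a library. They were chosen after their values were seen and are given without a test. MFP2 made up 56.2% and 58.1% of the MFP2 and AIM1 level in epl1a/b, against 41.7% and 40.5% in WT, and 55.6% in the dark, against 40.3% in the light. KAT2 made up 79.8% and 76.6% of the thiolase level in epl1a/b, against 72.8% and 72.6% in WT, and 95% in the dark, against 75.7% in the light. For both steps the share of the listed gene was higher in both epl1a/b libraries than in either WT library, and higher in the dark than in the light. ACX2 made up 12.7% and 12.1% of the level of 6 acyl-CoA oxidase genes in epl1a/b, against 14.8% and 14.9% in WT, and 17.8% in the dark, against 12.2% in the light. Its share was thus lower in both epl1a/b libraries than in either WT library, and higher in the dark. The level of ACX2 itself overlapped between epl1a/b and WT, while ACX1 was called higher, as given above. LACS6 made up 74.4% and 75.4% of the LACS6 and LACS7 level in epl1a/b, against 63.1% and 65.1% in WT. In the dark it made up 66.7%, against 71.6% in the light, so its share moved opposite ways in the 2 tables. The level of LACS6 itself overlapped between epl1a/b and WT, while LACS7 was called lower, as given above. PMDH1 made up 10.4% and 11.3% of the peroxisomal malate dehydrogenase level in epl1a/b, against 5.78% and 7.91% in WT. In the dark it made up 50.8%, against 16.5% in the light. The level of PMDH1 itself did not rise in epl1a/b, at 1055 and 1040 normalised counts, against 1136 and 1444 in WT (limma adjusted p = 0.0692). PCK1 made up at least 97.2% of the PCK1 and PCK2 level in every library, and SDP1 made up 79.0% to 82.6% of the SDP1 and SDP1L level.

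**Figure D5:**
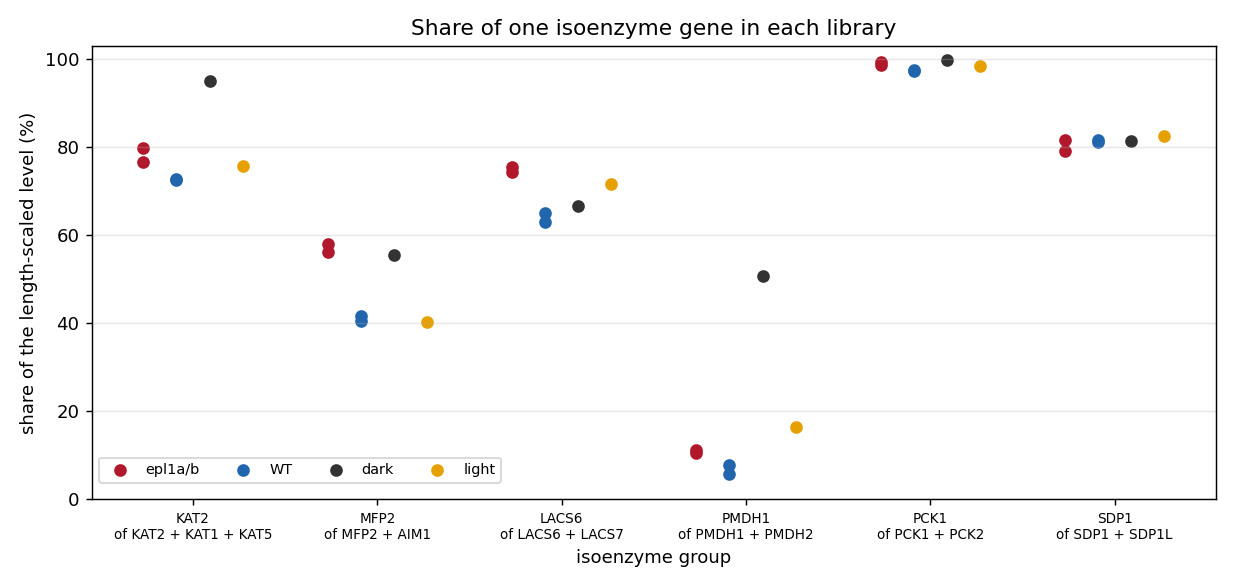
Share (%) of 1 isoenzyme gene in the summed level per kb of its group in each library: epl1a/b (red, 2 libraries), WT (blue, 2 libraries), dark (black, 1 library) and light (orange, 1 library). MFP2 lies at 56.2% and 58.1% in epl1a/b against 41.7% and 40.5% in WT, and PMDH1 at 50.8% in the dark against 16.5% in the light.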

How the data were processed

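RNA-seq of whole seedlings was analysed from 2 tables. Per the submitters' processing notes, HISAT2, featureCounts, edgeR and the TAIR10 build were used; versions and strand setting are not given in the sources used here, and the labels do not say which libraries were single-ended or paired-ended. The authors deposited raw read counts for dark and light. For epl1a/b and WT they deposited normalised counts (a signal that is not whole).

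Undoing edgeR's library-size equalisation gave whole reads for 100% of the 32548 genes of each genotype (relative tolerance 1e-06), used for count tests as alternatives only. The main test was limma 3.58.1 (R 4.3.3; trended, robust) on log2(value + 1), genes at 1 or more in at least 2 libraries, adjusted p (Benjamini-Hochberg, all genes tested) under 0.05, without a replicate block. Fold changes on that scale understate those of low genes. Called or rose means past that threshold. Dark and light were scaled by TMM (edgeR 4.0.16), with log2 ratios at a prior count of 2, for genes with at least 10 counts, and a 2-fold rule of size. Intervals cover counting error only. Alternatives were pseudocounts of 0.1 and 10, a filter of 10 or none, equal totals, a replicate block, each library left out, and edgeR and DESeq2 1.42.0 on recovered reads. With a library left out, the lone library of its group is assumed to vary like those of the other group. Per-kb levels use exon lengths from RefSeq TAIR10.1.

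The members and gene lists were chosen with earlier results of these data known. From each other list, genes to name were drawn from the up to 2 largest called rises and falls with a mean of at least 10. A list of 2 or fewer called genes was taken in full, which brought in CRA1. For dark against light they were drawn from the 2 genes at each end of the ratios whose mean reached 5 CPM. Not all genes picked in this way are named in the text. Isoenzyme shares, PEX5, PEX7, CSY1, SESA1, OLEO1, OLEO3, OLEO4 and OLEO5 are exceptions. The limma script was tested on simulated data.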

Additional observations from a re-analysis of the deposited data

How the results depend on the processing

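On equal totals the median log2 change over all genes was 0.25, against 0.02 as deposited, and 8749 genes were called higher and 3655 lower, so that 70.5% of calls were higher, against 48.3%. On that scale 6 of the 10 genes were called higher and 1 lower. Of the 53 wider pathway genes tested, 18 were called higher and 14 lower. With each library left out in turn, calls over all genes ran from 2660 to 3689 higher and from 3836 to 4147 lower. Those of the 10 genes ran from 3 to 5 higher and from 1 to 2 lower, and those of the wider pathway from 2 to 8 higher and from 15 to 17 lower. LACS6 reversed to -0.0459 without WT replicate 1, with its values running from -0.0459 to 0.20 as libraries were left out. SDP1 reversed to 0.0272 on equal totals. The causes were not tested.

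The labels give no pairing beyond a replicate number. Same-numbered deviations correlated at -0.14 across 23658 genes, which cannot decide with 2 libraries per group whether libraries were paired. A replicate block gave 4578 higher and 5099 lower calls, with 4 and 2 of the 10 genes. Crossed pairing, chosen after seeing the data, gave 5353 higher and 5585 lower calls, with 5 and 2 of the 10. DESeq2 on recovered reads called 3805 higher and 4378 lower. For dark against light, 4 of the 10 genes were at least 2-fold higher and 0 lower under all 4 alternatives. The ratios of the 10 genes and of the genes picked for naming were checked under each alternative. They left their counting interval in 35 cases and stayed inside it in 133. At 39 and 57 reads in WT, MLS is the member most limited by depth.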
